A study of Mus musculus with 4 samples.

Results

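The smooth muscle contractile genes examined here are 10 genes, chosen by symbol: the actins Acta2 and Actg2, the myosin subunits Myh11, Myl6 and Myl9, the kinase Mylk, the actin-binding genes Cnn1, Tagln and Tpm2, and the receptor Oxtr. They are 10 of the 32285 genes listed in 3 of the 4 stages, and of the 31053 listed at E15.5, with the same identifier in all 4 tables. They were followed by single-cell RNA-seq in mammary cells of female WT C57B6 mice (C57 B6/N in the study's methods), with 1 library per stage covering E13.5, E14.5 and E15.5 of embryonic life and the day of birth (P0), each from tissue pooled over several embryos or pups. No group carried a transgene or a treatment. Cells positive for CD45, CD31 or Ter119, which mark blood and endothelial cells, were sorted away, and the methods describe sorting by the presence or absence of EpCAM. The P0 digestion used other enzyme concentrations and a red cell lysis step, so age, digestion and library cannot be told apart between P0 and the embryonic stages.

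Smooth muscle contraction runs on a small set of proteins. Calcium bound to calmodulin activates myosin light chain kinase (Mylk), which phosphorylates the regulatory light chain (Myl9) so that smooth muscle myosin (heavy chain Myh11, essential light chain Myl6) pulls on filaments of smooth muscle actin (Acta2, Actg2). Tropomyosin (Tpm2), calponin (Cnn1) and transgelin (Tagln) bind those filaments. The basal cells of the mammary epithelium, also called myoepithelial cells, use this machinery to eject milk when oxytocin reaches its receptor (Oxtr), and they do so as epithelial cells that carry keratins rather than as muscle. In fibroblasts, Acta2 and Tagln are the usual signs of a myofibroblast, and Myl6, Myl9 and Tpm2 are used by many cells outside muscle.

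Many of these genes are known targets of serum response factor, which binds a short element called the CArG box. RefSeq promoter windows on GRCm38.p6 were found for 7 members, and none was found for Actg2, Myh11 and Tagln. Only the strict form was searched, CC and GG around a core of A and T alone, so a box with another base in its core was not counted. The 250 bases before the start held such a CArG box in 2 of these 7 members, and in 482 of 32851 promoter windows of all genes (1.47%). The first count is of genes and the second of windows, and a gene can have more than 1 window. The box reads the same on both strands, so 1 search covers both. Both boxes are shown with 10 bases on each side, 5′ to 3′ on the strand of the gene, with the box in capitals, because these are the 2 members with a box. Myl6 was seen in nearly all cells and Myl9 mostly in mesenchyme and, at P0, in basal cells.
Myl6, chr10:128493040-128493069, minus strand: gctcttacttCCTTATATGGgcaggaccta
Myl9, chr2:156775293-156775322, plus strand: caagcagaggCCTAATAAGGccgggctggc
The Myl6 box lay at positions -50 to -41 from its start and the Myl9 box at -161 to -152. The Myl6 window is 1 of 2 listed for that gene and lies inside its annotated span on chromosome 10 (128490860 to 128494145), and the other window held no box. Myl9 spans 156775420 to 156781658 on chromosome 2. A match describes these letters only, and a window without one says nothing of the factor.

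Cells with at least 5000 UMIs (unique molecular identifiers, each standing for 1 captured transcript) and at most 6% mitochondrial UMIs were kept. A cell was called epithelial or mesenchymal by the larger of its UMIs of Epcam, Krt8, Krt18, Krt5 and Krt14 and its UMIs of Col1a1, Col1a2 and Col3a1. This gave 98 epithelial and 135 mesenchymal cells in the E13.5 library, 45 and 31 in the E14.5 library, 532 and 283 in the E15.5 library, and 230 and 273 in the P0 library. The median depth of these groups was 16438 to 26725 UMIs per cell in the embryos and 8743 to 9973 at P0, so shares of cells with a UMI were taken after randomly drawing 5000 UMIs from each cell (thinning), unless stated otherwise. At P0 the epithelium was divided by keratins. The 15 cells with more UMIs of Krt5, Krt14 and Krt17 than of Krt8, Krt18 and Krt19 are called basal-like, and the other 215 luminal-like, with 16 cells near the cut. The 9 basal markers summed to 5375 CPM (UMIs per 1000000 UMIs of the group) in the basal-like and 1473 in the luminal-like cells. The 12 luminal markers summed to 1824 and 13376. Both lists include the keratins used for the division, so these sums are partly set by it and are no independent check of the classes. No barcode was shared between stages among kept cells, and in 0 to 8 cells per stage the weaker tissue sum made up over 20% of both sums.

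A level is the summed UMIs of a group of cells in CPM, with its exact 95% Poisson interval, and a fold is the ratio of 2 levels with its exact conditional binomial interval. Both intervals cover counting error within 1 library. With 1 library per stage there is no replicate, and no test or p-value is given. A gene is called higher or lower in a comparison at a ratio of 2-fold or more with at least 10 UMIs over both groups. With the cells and limits given here, each count of members is set beside the share of all genes called the same way. Counts of members under other cells, limits or thinning have no such share beside them. Where a group had 0 UMIs, the ratio was taken against 3 UMIs over the group and is written as a bound. Levels of different genes are not compared, since they depend on how well each transcript is captured.

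**Figure D1:**
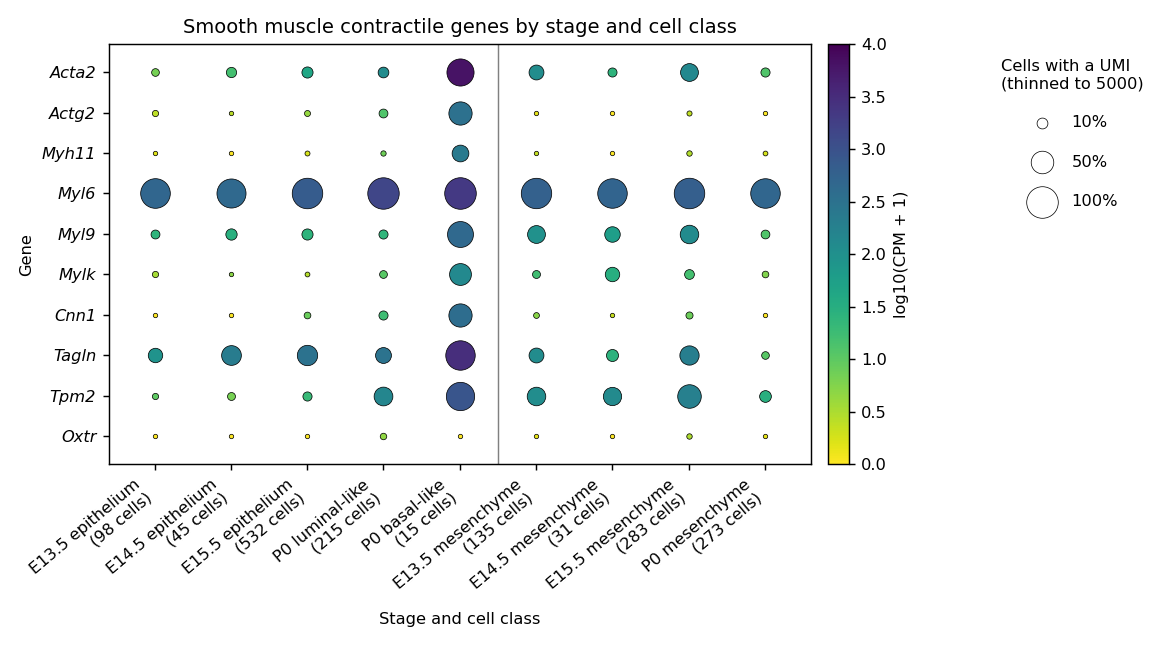
The 10 genes (rows) in the 9 groups of cells (columns, with cell numbers); colour gives log10(CPM + 1) and dot area the share of cells with a UMI after thinning to 5000. The P0 basal-like column has the darkest dot for 9 of the 10 genes, while Oxtr reached at most 3.66 CPM anywhere.

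Acta2, smooth muscle alpha actin (chromosome 19, 34241090 to 34255590, minus strand of GRCm38, GENCODE annotation), was low in the embryonic epithelium, present in the embryonic mesenchyme and very high in P0 basal-like cells. In the epithelium its level was 5.88 CPM (3.04 to 10.3) at E13.5, 14.9 CPM (8.98 to 23.3) the next day and 41.9 CPM (38.6 to 45.4) at E15.5. In mesenchyme it was 113 CPM (99.5 to 127) at E13.5, 25.1 CPM the next day (21 UMIs), 133 CPM (124 to 141) at E15.5 and 11.6 CPM (7.74 to 16.6) at P0. At P0 it was 6333 CPM (5941 to 6744) in basal-like and 116 (103 to 130.1) in luminal-like cells. In the order of levels, the intervals of neighbours overlapped from the E13.5 epithelium over the P0 mesenchyme and the E14.5 epithelium to the E14.5 mesenchyme. They overlapped again from the E13.5 mesenchyme over the luminal-like cells to the E15.5 mesenchyme. The P0 basal-like level stood 54.7-fold (47.9 to 62.6) above the luminal-like and 548-fold (379 to 822) above the mesenchymal level of the same library. A single cell gave 37.6% of the basal-like UMIs and another 23.9% of the luminal-like ones. Of the 285 luminal-like UMIs, 252 lay in 9 luminal-like cells that fell in cluster 3 of the P0 epithelium, described below.

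Actg2, the gamma actin of smooth muscle (chromosome 6, 83512905 to 83536265, minus strand), followed at far fewer UMIs. In the embryonic epithelium it gave 3, 2 and 48 UMIs at the 3 stages in order of age, or 1.47, 1.57 and 3.36 CPM. The embryonic mesenchyme gave 1, 0 and 10 UMIs, or 0.415, 0 and 1.38 CPM, and the P0 mesenchyme gave 0 UMIs in 273 cells, which allows a share of cells with a UMI of up to 1.10%. At P0 the level was 332 CPM (247 to 437) in basal-like and 11.8 (7.89 to 16.9) in luminal-like cells, 28.2-fold (17.5 to 46.1) apart. Acta2 and Actg2 encode nearly identical proteins, and reads from shared sequence would not be assigned to either gene, so the level of each could be understated.

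Myh11, the heavy chain of smooth muscle myosin (chromosome 16, 14194535 to 14291372, minus strand), was close to absent before birth. It gave 1, 0 and 12 UMIs in the epithelium and 3, 0 and 14 in the mesenchyme at the 3 embryonic stages, at most 1.93 CPM. At P0 it reached 228 CPM (159 to 317, 35 UMIs) in basal-like cells, 6.50 (3.72 to 10.6) in luminal-like cells and 0.798 (0.0966 to 2.88, 2 UMIs) in mesenchyme. The basal-like level was 35.1-fold (18.9 to 67.9) above the luminal-like one, although only 6 of the 15 basal-like cells held a UMI before thinning. A single cell gave 54.3% of the basal-like UMIs. Of the 16 luminal-like UMIs, 15 lay in the 9 luminal-like cells of cluster 3. In the epithelium outside that cluster the level was 0.416 CPM.

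Myl6, the essential light chain (chromosome 10, 128490860 to 128494145, minus strand), was the member found in nearly every cell. It was seen in 84.4% to 93.3% of the cells of every embryonic group, in 99.1% of P0 luminal-like and all 15 P0 basal-like cells, and in 87.2% of the P0 mesenchyme. Its levels in the epithelium were 495, 449 and 711 CPM through the 3 embryonic stages, and 597, 531 and 644 CPM in the mesenchyme. At P0 it was 2144 CPM (1918 to 2388) in basal-like cells, 1473 (1425 to 1522) in luminal-like cells and 494 (467 to 522) in mesenchyme. Basal-like and luminal-like cells thus differed by 1.46-fold (1.30 to 1.63), which is under the 2-fold limit, whereas both lay above the mesenchyme, by 4.34-fold and 2.98-fold.

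Myl9, the regulatory light chain (chromosome 2, 156775420 to 156781658, plus strand), was highest in mesenchyme in the embryo and in basal-like cells at P0. In mesenchyme it was 95.9 CPM (83.9 to 109), 58.5 (43.3 to 77.3) and 123 (115 to 132) at the 3 embryonic stages and 11.6 (7.74 to 16.6) at P0. In the embryonic epithelium taken whole it was 24.0, 27.5 and 24.6 CPM, and the 3 intervals overlapped. In the 22 E13.5 epithelial cells of cluster 2, described below, it was 78.1 CPM (52.3 to 112), which overlaps the mesenchymal interval of that stage. At P0 it was 449.6 CPM (349.8 to 569) in basal-like and 22.8 (17.2 to 29.6) in luminal-like cells, a ratio of 19.8-fold (13.7 to 28.6). Of the 56 luminal-like UMIs, 38 lay in the 9 luminal-like cells of cluster 3.

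Mylk, the kinase that switches smooth muscle myosin on (chromosome 16, 34745210 to 35002420, plus strand), was also highest in mesenchyme in the embryo, at lower counts. The mesenchyme held 15.8 CPM (11.2 to 21.7), 29.8 (19.3 to 44.0) and 14.6 (12 to 17.7) at the 3 embryonic stages and 4.79 (2.47 to 8.36) at P0. The epithelium held 2.45, 3.93 and 1.75 CPM from 5, 5 and 25 UMIs. P0 basal-like cells held 130.3 CPM (79.6 to 201) and luminal-like cells 9.75 (24 UMIs), 13.4-fold apart (7.0 to 25.2). Of these 24 UMIs, 20 lay in the 9 luminal-like cells of cluster 3.

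Cnn1, calponin (chromosome 9, 22099216 to 22109630, plus strand), was not seen in the E13.5 and E14.5 epithelium and gave 102 UMIs in the E15.5 epithelium, or 7.14 CPM (5.82 to 8.66). A count of 0 allows up to 1.47 CPM at E13.5 and 2.36 at E14.5. The mesenchyme gave 4.15 CPM (10 UMIs), 1.19 (1 UMI) and 7.02 (51 UMIs) before birth, and 0 UMIs at P0. P0 basal-like cells had 391 CPM (298 to 503), 24.1-fold (15.9 to 36.8) above the 16.3 CPM of luminal-like cells.

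Tagln, transgelin (chromosome 9, 45929619 to 45936058, minus strand), was seen in 19.4% to 40.4% of the cells of the embryonic epithelium. Its epithelial level was 88.7 CPM (76.2 to 103), 217 (192 to 244) and 306 (297 to 315) at the 3 embryonic stages, and its mesenchymal level was 117 (103 to 131), 26.3 (16.5 to 39.7) and 201 (190.4 to 211). At P0 it was 3017 CPM (2748 to 3304) in basal-like, 295 (274 to 318) in luminal-like and 9.97 (6.45 to 14.7) in mesenchymal cells. The luminal-like level and the E15.5 epithelial level overlapped in their intervals, and the basal-like level was 10.2-fold (9.07 to 11.5) above the luminal-like one.

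Tpm2, beta tropomyosin (chromosome 4, 43514711 to 43523765, minus strand), was 113 CPM (99.5 to 127), 126 (104 to 153) and 188 (178 to 198) in the embryonic mesenchyme and 28.7 (22.5 to 36.2) at P0. The epithelium had 8.82, 5.50 and 19.0 CPM in the embryo. P0 luminal-like cells had 143 CPM (128 to 159) and basal-like cells 873 (732 to 1034), a ratio of 6.10-fold (4.96 to 7.47). It was seen in 34.0% of luminal-like cells, and besides it Tagln (23.7%) and Myl6 (99.1%) were the members seen in at least 10% of them.

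Oxtr, the oxytocin receptor (chromosome 6, 112473683 to 112489943, minus strand), was barely detected. The embryonic epithelium gave 0 UMIs at all 3 stages. The embryonic mesenchyme gave 1, 0 and 15 UMIs, the latter in 12 of 283 E15.5 cells, or 2.07 CPM (1.16 to 3.41). At P0 it gave 9 UMIs in the luminal-like cells, 1 in the mesenchyme and 0 in the 15 basal-like cells, where a count of 0 allows up to 19.5 CPM. That limit is above the 3.66 CPM of the luminal-like cells, so no difference between the classes could be seen at this depth.

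**Figure D2:**
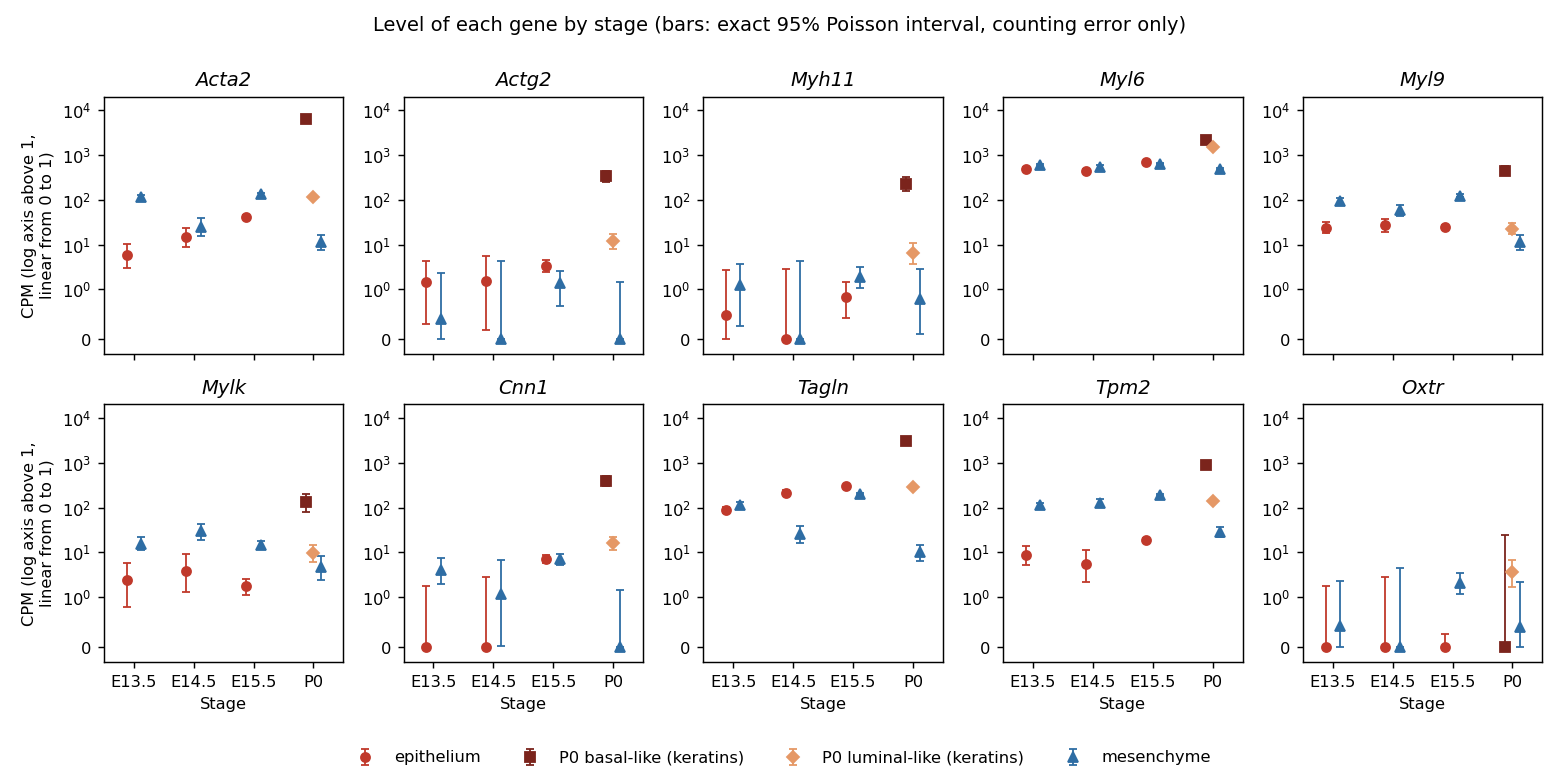
Level of each gene (CPM, log axis above 1 and linear from 0 to 1) by stage, in epithelium or, at P0, basal-like and luminal-like cells, and in mesenchyme; bars are exact 95% Poisson intervals. Embryonic mesenchyme lies above embryonic epithelium for Myl9, Mylk and Tpm2, whereas at P0 the basal-like level is above the mesenchymal one for every gene but Oxtr.

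The first question is which members precede P0. A gene was counted as present where at least 10% of a group's cells held a UMI after thinning. In the E13.5 epithelium 2 members were present, Myl6 and Tagln, the latter in 19.4% of cells (12.1 to 28.6), where 30.8% of all genes tested were present. That group mixes clusters, described below. In its cluster 2, 22 cells led by mammary bud genes, Myl6 (95.5%), Tagln (63.6%), Myl9 (22.7%) and Acta2 (13.6%, 2.91 to 34.9, in 3 cells) all passed the 10% limit. No share of all genes was taken in that cluster. In the E14.5 epithelium 3 were present, Tagln in 37.8% (23.8 to 53.5) and Myl9 in 11.1% (3.71 to 24.1) of 45 cells, beside Myl6, against 34.9% of all genes. In the E15.5 epithelium 4 were present, Acta2 in 10.7% (8.22 to 13.7), Myl9 in 10.7% and Tagln in 40.4% (36.2 to 44.7), beside Myl6, against 25.1% of all genes. The count of 2 out of 10 at E13.5 is under the share of all genes. That share is over genes with a UMI at the stage. At E14.5 Myh11 and Oxtr had 0 UMIs in both tissues, so the 3 out of 10 has another base than the 34.9% and is not ranked against it. The 4 out of 10 at E15.5 is above the share of all genes, but Acta2 and Myl9 lay just above the 10% limit there.

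In the mesenchyme 5 members were present at each embryonic stage. At E13.5 this compares with 2 in the epithelium, but with 4 there once skin keratin cells (described below) were left out. Without thinning the counts were 6 and 4. The 5 at E13.5 had Acta2 in 20.7% (14.2 to 28.6), Tagln in 20.7%, Myl9 in 30.4% (22.8 to 38.9) and Tpm2 in 33.3% (25.5 to 42.0) of cells besides Myl6, and 33.3% of all genes were present. Those 5 members were present at E15.5 too, with Acta2 in 30.4% (25.1 to 36.1), Tagln in 36.0%, Myl9 in 33.2% and Tpm2 in 54.8% (48.8 to 60.7), against 26.5% of all genes. At E14.5 5 were present against 34.1% of all genes, but Mylk, in 6 of 31 cells, was among them and Acta2, in 2 of 31, was not. Actg2, Myh11, Cnn1 and Oxtr were present in no embryonic group, with a UMI in at most 3.18% of cells after thinning. The E14.5 mesenchyme is small, and the top cell of each gene, not always the same cell, held 52.4% of its Acta2, 42.9% of its Myl9 and 40.9% of its Tagln UMIs.

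Within each embryonic stage the members were split between the tissues. At E13.5 5 members were called higher in mesenchyme than in epithelium, where 24.2% of all genes were. These were Acta2 (19.1-fold, 10.8 to 37.5), Tpm2 (12.8-fold, 7.92 to 21.9), Mylk (6.44-fold, 2.53 to 21.0), Myl9 (4.0-fold, 2.93 to 5.56) and Cnn1 (at least 2.83-fold, 10 UMIs against 0). The exact interval of Cnn1 began at 1.90, under the 2-fold limit. Tagln differed by 1.32-fold (1.09 to 1.60) and Myl6 by 1.21-fold, and 3 members had too few UMIs. At E14.5 3 were higher in mesenchyme (19.6% of all genes): Tpm2 (23.0-fold, 10.8 to 58.6), Mylk (7.60-fold, 2.86 to 25.4) and Myl9 (2.13-fold, 1.35 to 3.38). After thinning, 1 member was called higher in place of 3, and Myl9 turned to a log2 ratio of -0.36. Tagln was the other way round, 8.26-fold (5.34 to 13.4) higher in the epithelium.

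At E15.5 6 members were called higher in mesenchyme, against 23.8% of all genes. Tpm2 was 9.89-fold (8.68 to 11.3), Mylk 8.35-fold, Myl9 5.02-fold (4.43 to 5.70) and Acta2 3.17-fold (2.86 to 3.51) higher. Oxtr was at least 9.84-fold higher on 15 UMIs against 0, and Myh11 2.30-fold, with an interval that reached 0.986 on 14 and 12 UMIs. Actg2 was 2.44-fold (1.22 to 5.40) lower in mesenchyme, and Cnn1 (0.984-fold, 0.689 to 1.39) and Tagln (1.53-fold higher in the epithelium) stayed under the limit. The median log2 ratio of the members was 2.69, 0.92 and 1.43 at the 3 stages in order, beside 0.20, -0.01 and 0.12 over all genes tested.

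Skin keratinocytes are part of what the epithelial rule collected. In the epithelium, 65 of 98, 25 of 45 and 334 of 532 cells at the 3 embryonic stages held at least 3 UMIs of Krt1, Krt10 and Krt15 together (skin keratin cells). The 7 skin markers summed to 516, 735 and 1660.4 CPM. This cut is low for the depth, and passing it does not make a cell skin. At E15.5 only cluster 5 of the clusters described below, 16 cells, was led by Krt1 and Krt10. Leaving out the skin keratin cells may therefore also leave out mammary cells. Without the skin keratin cells the E13.5 log2 ratio of Tagln in mesenchyme over epithelium went from 0.40 to -0.66. That of Acta2 went from 4.26 to 2.71 and that of Myl9 from 2.00 to 0.74, and 3 members were called higher in place of 5. Pericytes and vascular smooth muscle carry the same contractile genes. The 13 markers of these cells summed to 162, 158 and 136 CPM in the embryonic mesenchyme and 79.3, 92.7 and 165 CPM in the epithelium, and Rgs5 gave 17 UMIs in the 283 E15.5 mesenchymal cells. Leaving out the mesenchymal cells with at least 2 UMIs of pericyte genes kept 6 members higher in mesenchyme at E15.5 and 4 at E13.5. No share of all genes is given for the counts without skin keratin or pericyte-marker cells.

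Across the embryonic epithelium, 5 members rose from E13.5 to E15.5, where 14.1% of all genes did. Acta2 rose 7.13-fold (4.05 to 13.9), Tagln 3.45-fold (2.98 to 4.03), Tpm2 2.15-fold (1.34 to 3.68) and Cnn1 at least 4.86-fold. Actg2 was called at 2.29-fold with an interval of 0.737 to 11.5 on 3 UMIs at E13.5. Myl6 (1.44-fold) and Myl9 (1.02-fold, 0.757 to 1.41) did not pass the limit. Acta2 took its step in both intervals, 2.54-fold (1.17 to 5.74) from E13.5 to E14.5 and 2.81-fold (1.78 to 4.70) from E14.5 to E15.5, while Tagln was 2.45-fold (2.02 to 2.97) and then 1.41-fold (1.25 to 1.60) higher. Without the skin keratin cells only 2 members passed, with log2 ratios of 1.37 for Acta2 and 1.25 for Tagln. The E13.5 epithelium is also a mix of clusters, described below. In the 22 cells of its cluster 2, led by mammary bud genes, Tagln was already 337 CPM (280.2 to 401) and Myl9 78.1 (52.3 to 112). The whole E15.5 epithelium held 306 and 24.6. Acta2 was 21.5 CPM (9.30 to 42.4) in that cluster against 41.9 at E15.5. The part of cell mix in these ratios was not tested. In the mesenchyme over the same days 2 members were called higher, where 8.90% of all genes were, and 0 lower, where 15.7% were. The 2 were Oxtr (4.98-fold, 0.766 to 209, on 15 UMIs against 1) and Actg2 (3.32-fold, 0.472 to 144, on 10 against 1), and both intervals include 1. Tagln (1.72-fold, 1.51 to 1.96) and Tpm2 (1.67-fold, 1.46 to 1.91) stayed under the limit. E15.5 was counted with another release of the counting program and another gene list than E13.5, and the part of this in the ratios was not tested.

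Clusters of each tissue and stage were built without the members and without the other contractile genes, 50 genes in all, and the levels in them are given as a description. In the E13.5 epithelium, Tagln was concentrated in the 22 cells of cluster 2, led by Pthlh, Msx1, Ndnf and Sostdc1, genes known from the embryonic mammary bud. It was 337 CPM (280.2 to 401) there, in 17 of 22 cells, against 21.4 in cluster 0 (Fbln2, Col17a1) and 55.6 in cluster 1 (Hopx, Gabrp, Krt17), a 10.0-fold difference (7.27 to 14) from the other cells together. Myl9 followed at 78.1 CPM against 10.2 and 15.2, and Acta2 at 21.5 (8 UMIs) against 0.928 and 5.06. Tpm2 gave 5 UMIs in cluster 2, 13 in cluster 0 (12.1 CPM) and 0 in cluster 1.

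At E15.5 another epithelial cluster held the highest levels. Of the members below, all but Cnn1 were highest not in the 79 cells of cluster 2, led by Ndnf, Tbx3 and Pthlh, but in the 112 cells of cluster 1, led by Ly6d, Id1, Krtdap and Krt19, of which Krtdap is a gene of stratifying keratinocytes and Krt19 a luminal keratin. Between these clusters Tagln was 561 against 125 CPM (4.49-fold, 3.92 to 5.16), Acta2 79.4 against 22.8 (3.49-fold, 2.52 to 4.94) and Tpm2 36.8 against 3.18 (11.6-fold, 5.16 to 32.2). Cnn1 was 15.0 against 2.12 CPM (7.06-fold, 2.58 to 26.9), Myl9 40.8 against 9.54 (4.28-fold) and Myl6 928 against 519 (1.79-fold). In cluster 1 the top cell of each gene gave 24.7% of the Acta2, 16.9% of the Tpm2 and 11.1% of the Tagln UMIs, and these need not be the same cell. Cluster 0, the largest with 215 cells, held 332 CPM of Tagln, 34.9 of Acta2, 24.9 of Myl9 and 12.2 of Tpm2. Its median cell held 161 CPM of Tagln, against 107 in cluster 1, so the order of Tagln by median cell was the reverse. The 64 proliferating cells of cluster 3 (Top2a, Mki67) held 254 CPM of Tagln and 16.1 of Cnn1, of which 1 cell gave 65.8% of the UMIs, and the 46 cells of cluster 4 (Dcn, Has2) held 15.4 and 1.72. Tpm2 in cluster 4 was 32.6 CPM (23.1 to 44.7), which overlaps the interval of cluster 1 (30.4 to 44.0). In cluster 5, 16 cells led by the skin keratins Krt1 and Krt10, Tagln was 4.10 CPM and Acta2 0. Tpm2 was 20.5 CPM (10 UMIs) and Myl6 800.4 CPM in cluster 5, so the members were not all low in these clusters.

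In the E15.5 mesenchyme the members did not share 1 order of clusters. Cluster 1, 73 cells led by Nrk, Aspn, Plagl1 and Cdkn1c, held more Acta2 (176 against 69.9 CPM, 2.52-fold) and more Mylk (38.6 against 5.63, 6.85-fold, 3.64 to 14) than cluster 0, 86 cells with Hopx and Enpp2 among their leading genes. Tagln and Myl9 went the opposite way, 73.1 against 287 CPM (3.93-fold lower) and 69.8 against 149.6 (2.14-fold lower), and Tpm2 was 169 against 191. The proliferating cluster 2 was high for Acta2 (189 CPM), Tagln (226) and Myl9 (162) together. At E13.5 the same genes were more even, with Acta2 at 118, 83.2 and 126 CPM and Tpm2 at 102, 115 and 132 in the 3 mesenchymal clusters.

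**Figure D3:**
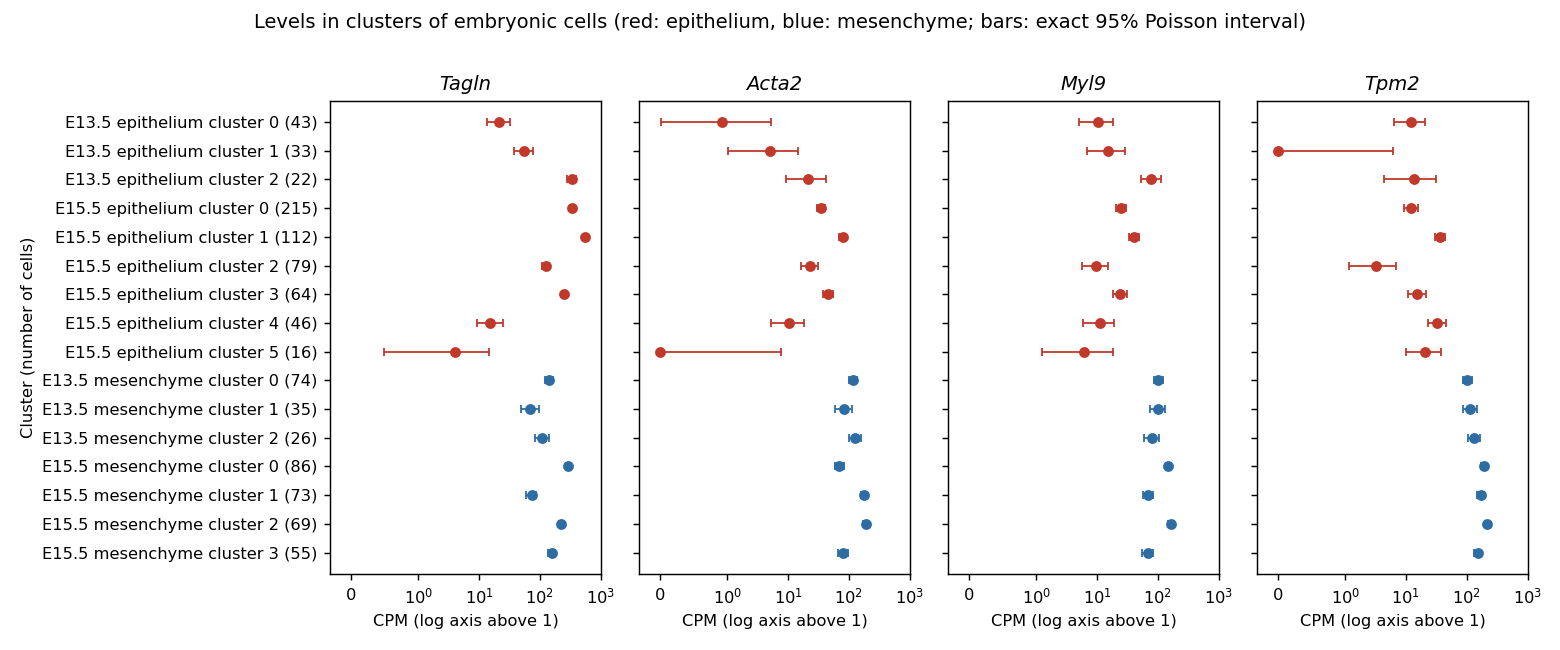
Levels (CPM, log axis above 1) of Tagln, Acta2, Myl9 and Tpm2 in the clusters of E13.5 and E15.5 cells, with the number of cells of each cluster; red is epithelium, blue mesenchyme, and bars are exact 95% Poisson intervals. Tagln peaks at 337 CPM in E13.5 epithelial cluster 2 and at 561 CPM in E15.5 epithelial cluster 1, and mesenchymal clusters 0 and 1 of E15.5 have opposite orders for Acta2 (69.9 and 176 CPM) and Tagln (287 and 73.1 CPM).

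At P0 the levels were highest in the epithelium. Of the 10 members, 8 were called higher in the basal-like class than in the luminal-like one, where 9.83% of all genes tested were, and Myl6 and Oxtr were not. The members' median log2 ratio was 4.30 beside -0.32 for all genes. Against the mesenchyme 9 members were higher in basal-like cells (17.5% of all genes), with a median log2 ratio of 8.16 beside -0.22. From the E15.5 epithelium to the P0 basal-like cells 9 members rose (15.2% of all genes): Myh11 272-fold (138 to 575), Acta2 151-fold (136 to 168), Actg2 99.0-fold, Mylk 74.5-fold, Cnn1 54.8-fold, Tpm2 46.1-fold, Myl9 18.3-fold, Tagln 9.85-fold and Myl6 3.01-fold.

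Of 28 further genes of smooth muscle and its regulators, 22 had enough UMIs to compare the keratin classes, and 2 were called higher in the basal-like class and 1 lower, beside 9.83% and 12.8% of all genes. The 2 were Nexn, an actin-binding gene (16.0-fold, 5.99 to 42.9), and Lmod1, a smooth muscle actin nucleator (6.87-fold, 2.16 to 19.0), followed below the limit by Flna (1.72-fold) and Cald1 (1.66-fold, 1.47 to 1.86). Of 12 non-muscle actin, myosin, tropomyosin, calponin and transgelin genes 0 were called either way, and the 4 with the largest ratio were Cnn2 (1.47-fold), Cnn3 (1.35-fold), Tpm4 (1.20-fold) and Myh9 (1.12-fold). Myocd, a coactivator of serum response factor in smooth muscle, gave 0 UMIs in both classes, and Srf itself was 32.6 against 45.5 CPM (0.716-fold, 0.228 to 1.72). Against the E15.5 epithelium the basal-like cells had 12 of the 25 related genes tested higher and 2 lower, beside 15.2% and 14.2% of all genes, led by Lmod1 (14.7-fold), Ppp1r14a (11.6-fold on 2 UMIs), Pgm5 (6.90-fold on 2 UMIs) and Itpr1 (6.90-fold), and 2 of the 12 non-muscle genes higher and 1 lower. Tagln2 (3.65-fold) and Myh9 (2.08-fold) were those higher, and Cnn2 (1.80-fold) and Tpm4 (1.46-fold) came next.

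**Figure D4:**
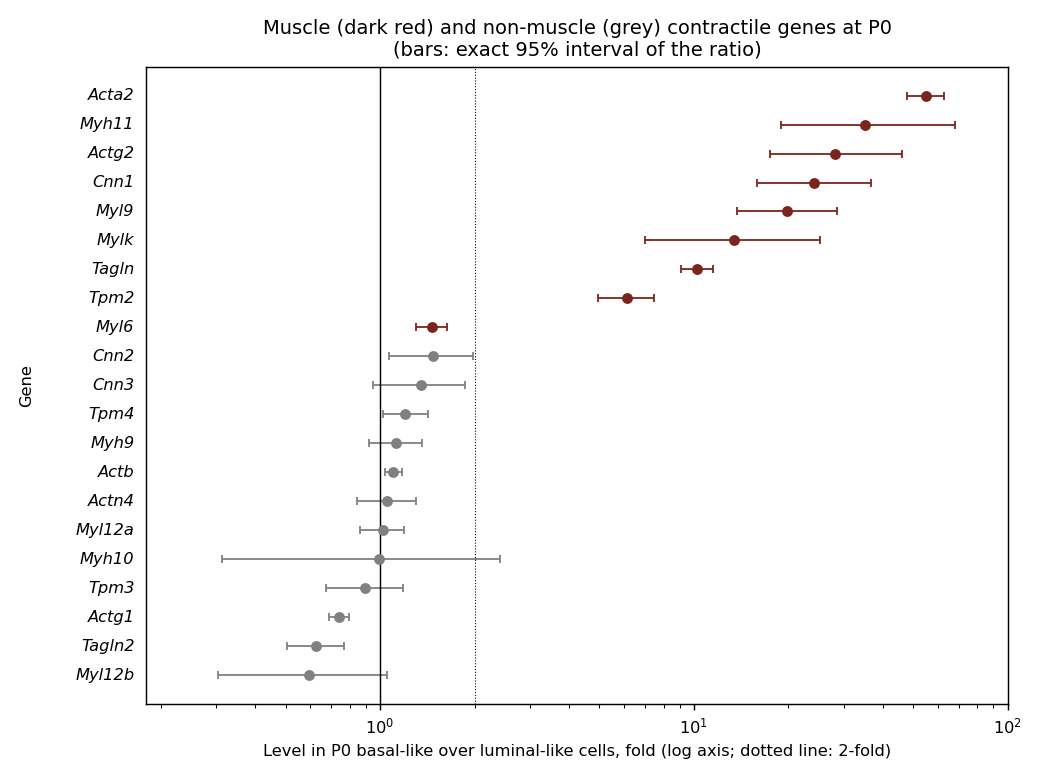
Ratio of the level in P0 basal-like over luminal-like cells (log axis, dotted line at 2-fold) for members and for non-muscle relatives, with exact 95% intervals. Acta2 is at 54.7-fold and Tpm2 at 6.10-fold, while the non-muscle genes end at 1.47-fold for Cnn2.

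The genes whose pattern was most like that of Acta2 were found by Pearson's r of log2(CPM + 10) over the 9 groups, among 1081 genes with enough UMIs in the basal-like cells. The 5 nearest were Cnn1 (r = 0.96), Nrg1, a growth factor (0.94), Myh11 (0.93), Palld, an actin-bundling gene (0.92), and Actg2 (0.91). Myl9 ranked 13 (0.88), Tpm2 15, Mylk 17 and Myl6 18 (0.87 each), and Tagln 28 (0.82). These values describe 9 groups from 4 libraries that share depth and stage, and 1 group, the P0 basal-like cells, lies far above the others. Nrg1 stood at 339 CPM in that group and at 64.6 or less in every other.

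In single P0 cells the keratins and the contractile genes drew different lines. Of the 4 epithelial clusters, cluster 3 (19 cells) had the basal markers raised by a mean log2 fold of 1.85 and the luminal markers lowered by 3.29, and its leading genes were Acta2, Il17b, Apoe, Col4a2, Myl9 and Myh11, although no member took part in the clustering. It held 10 of the 15 keratin basal-like cells and 9 cells that the keratins called luminal-like. These 9 cells held 2307 CPM of the basal and 2048 of the luminal markers, against 1438 and 13856 in the 206 epithelial cells outside both definitions. The 5 basal-like cells outside the cluster held 5273 and 3854, with Trp63 at 0. The luminal-like name of the 9 cells thus rests on the keratin division alone. The study also counted 19 basal cells at P0, and whether they are the same cells was not checked. In the 10 cells the 7 restricted members (Acta2, Actg2, Myh11, Mylk, Cnn1, Tagln and Oxtr) summed to 1634 CPM in the lowest, 13108 in the median and 55026 in the highest cell, with 13 to 365 UMIs of Acta2. In the 9 cells they summed to 938, 2653 and 17939.6 CPM, with 2 to 68 UMIs of Acta2. The remaining 5 basal-like cells lay outside the cluster with 0, 397 and 1439 CPM, and 4 of them had no Acta2 UMI.

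The other 206 epithelial cells ranged from 0 to 7239.5 CPM with a median of 0, and 16 of them reached 1000 CPM. No more than 3 Acta2 UMIs were found in any of them. Acta2 was therefore in all 19 cells of cluster 3 and in few UMIs elsewhere, and taking the cluster in place of the keratins lowered the Acta2 level of the rest of the epithelium from 116 to 14.6 CPM. On that split Acta2 was 401-fold (287 to 579) higher in the cluster, Myh11 575-fold on 50 UMIs against 1 (98.5 to 23152), Mylk 115-fold (41.6 to 442), Myl9 64.1-fold and Actg2 36.9-fold. Cnn1 (26.8-fold), Tagln (11.6-fold), Tpm2 (6.94-fold) and Myl6 (1.37-fold) were nearer to their ratios between the keratin classes.

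**Figure D5:**
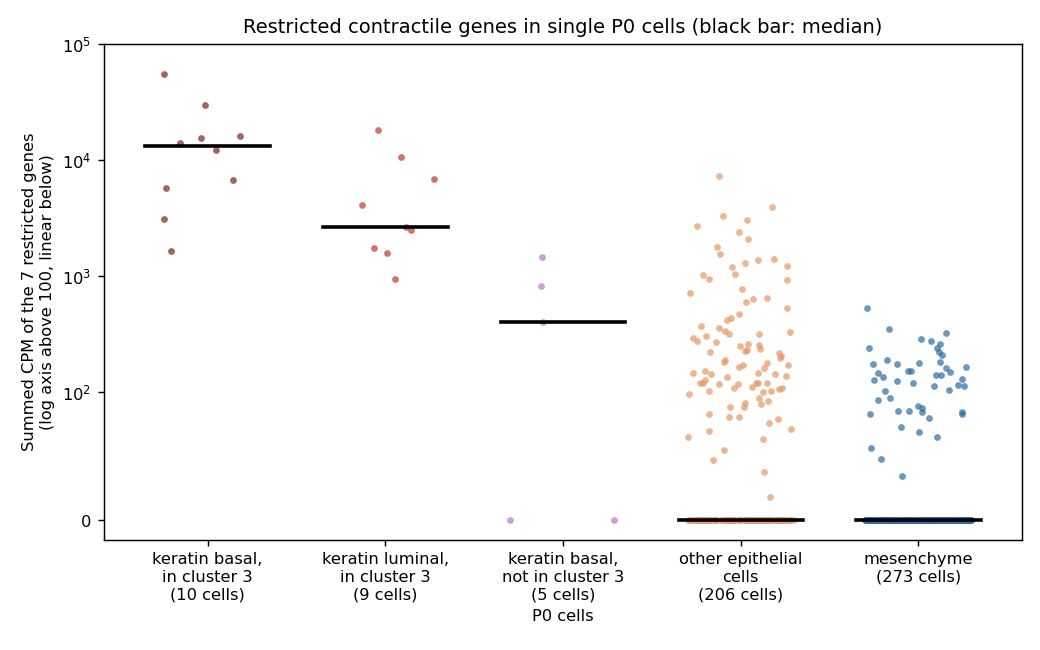
Summed CPM of the 7 restricted genes in single P0 cells (log axis above 100, linear below), grouped by keratin class and cluster, with black bars at the medians. The 19 cells of cluster 3 lie between 938 and 55026 CPM, and all 273 mesenchymal cells lie at or below 525 CPM.

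The members differed in the epithelium outside cluster 3. Acta2, Myl9, Mylk and Myh11 stood at 14.6, 7.90, 1.66 and 0.416 CPM there. Acta2 and Myl9 were lower than in the E15.5 epithelium, at 0.347 (0.240 to 0.488) and 0.322 (0.191 to 0.510) of its level. Mylk was at 0.951 (0.241 to 2.75, on 4 UMIs) and Myh11 at 0.495 (0.0116 to 3.35, on 1 UMI) of that level, so no fall was shown for these genes. Tagln (247 CPM), Tpm2 (126), Cnn1 (12.5) and Actg2 (7.90) persisted, with Tagln at 0.805 (0.738 to 0.877) of the E15.5 level and Tpm2 6.64-fold (5.62 to 7.86) above it. Tagln and Tpm2 were uneven among these cells. Tagln was 322 and 327 CPM in clusters 0 (97 cells, Nedd9 and Rnase1) and 1 (69 cells, Csn3 and Elf5) and 69.7 in the proliferating cluster 2 (45 cells, Cited1), ratios of 4.62-fold (3.42 to 6.34) and 4.69-fold (3.45 to 6.47). A single cell gave 35.0%, 34.7% and 68.6% of the Tagln UMIs of clusters 0, 1 and 2, so these ratios lean on few cells. Tpm2 was 187, 126 and 49.2 CPM and Cnn1 13.9, 20.2 and 2.73 CPM in the same 3 clusters.

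The last question is which P0 fibroblasts share the set with the basal cells. Of the members, Myl6 and Tpm2 (12.1% of cells) were present in the P0 mesenchyme, where 25.9% of all genes were. No member was called higher in P0 mesenchyme than in luminal-like cells, where 21.0% of all genes were, and 9 were called lower, where 25.6% were. The luminal-like class includes 9 of the 19 cells of cluster 3, which hold most of its Acta2. Against the epithelium outside that cluster 5 members were lower in mesenchyme (25.7% of all genes): Actg2, Myl6, Cnn1, Tagln and Tpm2. Acta2 was at 0.795 (0.469 to 1.34) of the epithelial level there, and Mylk was called higher in mesenchyme (21.3% of all genes) at 2.88-fold on 12 against 4 UMIs, with an interval of 0.872 to 12.2. Myl9 turned to 1.46-fold (0.793 to 2.76) higher in mesenchyme, and Myh11 had 2 against 1 UMIs. Against the whole P0 epithelium, no member was higher (20.8% of all genes were) and 10 were lower (25.2% of all genes), among them Oxtr on 1 against 9 UMIs. From E15.5 to P0 no member rose in the mesenchyme, where 15.6% of all genes did, and 8 fell, where 27.5% did: Tagln 20.1-fold (13.6 to 31.2), Acta2 11.5-fold (7.93 to 17.2), Myl9 10.7-fold (7.37 to 16.0), Tpm2 6.53-fold (5.15 to 8.40), Mylk 3.05-fold, Cnn1 at least 5.87-fold, and Oxtr and Myh11 on 1 and 2 UMIs at P0. Myl6 was at 0.768 (0.720 to 0.817) of its E15.5 level. The members' median log2 ratio was -3.06 beside -0.40 over all genes.

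Per cell, 35 of 273 P0 mesenchymal cells (12.8%) held a UMI of at least 1 restricted member after thinning, and 50 (18.3%) before. At least 2 restricted members were held after thinning by 2 of 273 cells, 0.733% (0.0888 to 2.62). The same count was 12 of 206 in the epithelium outside both basal definitions (5.83%, 3.05 to 9.95), 18 of 19 in cluster 3 and 12 of 15 in the keratin basal-like class. Before birth it was 15 of 135 E13.5 mesenchymal cells (11.1%), 56 of 283 at E15.5 (19.8%) and 45 of 532 E15.5 epithelial cells (8.46%). No P0 mesenchymal cell had 3 of them, which allows a share of up to 1.10%.

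Acta2 itself was seen in 28 of 273 P0 mesenchymal cells before thinning (10.3%), with at most 2 UMIs in any, at a median depth of 8743 UMIs. In the 206 remaining epithelial cells it was seen in 24 (11.7%, 7.61 to 16.8) at a median depth of 9973. After thinning the shares were 6.59% and 5.83%. The level was 1.26-fold (0.747 to 2.13) higher in the epithelium outside cluster 3 than in the mesenchyme. The share that free RNA gives in cells lacking Acta2 was not measured. Tagln had a UMI in 21.8% of the remaining epithelial and 4.03% of the mesenchymal cells and a level 24.7-fold (16.6 to 38.5) higher outside cluster 3 than in the mesenchyme.

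Among the 5 clusters of P0 mesenchyme, Acta2 was 6.80 to 17.5 CPM with overlapping intervals. Tpm2, Myl9 and Mylk stood out in the 27 cells of cluster 4, at 118 CPM (77.8 to 172), 39.3 (18.0 to 74.7) and 26.2 (9.62 to 57.1), which is 5.98-fold (3.57 to 9.84), 4.48-fold (1.80 to 10.3) and 9.96-fold (2.66 to 37.3) above the other mesenchymal cells, on 27, 9 and 6 UMIs. That cluster was led by Acta1, Myl1, Mylpf and Tnnc2, genes of skeletal muscle, together with Cilp and Mgp. Its 8 skeletal muscle markers summed to 511 CPM, against 22.2 or less in the other clusters, with 4 of the 8 detected and Myod1, Myog, Pax7 and Myh3 at 0. The part of skeletal muscle RNA in these 3 genes was not tested. Tagln was 18.2 CPM (9 UMIs) in cluster 2, led by Lcn2 and Fabp4, and 18.1 (8 UMIs) in cluster 3, led by Plet1, Epcam and Krt8, and 3.98 to 8.74 in the others. Cluster 2 also had the 4 blood markers (Ptprc, Tyrobp, Hbb-bs and Hba-a1) raised by a mean log2 fold of 5.86. Over the P0 mesenchyme these summed to 6579 CPM, with up to 6247 UMIs in a cell, despite the sort against blood cells. The part of blood RNA in the cluster 2 levels was not tested, nor was that of epithelial RNA in the levels of mesenchymal cluster 3. Actg2 and Cnn1 gave 0 UMIs in all 5 clusters. The cells of cluster 0, with the fibroblast progenitor genes Pi16 and Dpp4, held 10.7 CPM of Acta2, 4.76 of Tagln and 7.14 of Tpm2. Those of cluster 1, led by Eln, held 11.9 CPM of Acta2 (6 UMIs), 3.98 of Tagln (2 UMIs), 1.99 of Myl9 (1 UMI) and 21.9 of Tpm2 (11 UMIs). The study describes an Eln cluster at P0 with raised Eln, Mfap4 and Mgp, which it calls typical of myofibroblasts. Whether cluster 1 holds the same cells was not checked.

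Markers of vascular cells had another distribution at P0. The 13 pericyte and vascular smooth muscle markers summed to 599 CPM in the P0 mesenchyme, more than at any embryonic stage, but Ndufa4l2 alone gave 1088 of the 1503 UMIs, Rgs5 gave 1 UMI and Higd1b gave 0. Abcc9 gave 120 UMIs in 74 cells, Pdgfrb 111 in 79, Kcnj8 70 in 40, Cspg4 52 in 37 and Notch3 23 in 20. Cspg4 was highest in mesenchymal cluster 4, at 114 CPM in 55.6% of its cells, against 27.8 or less in the other clusters. Notch3 was also highest there (26.2 CPM), but Kcnj8, Abcc9 and Pdgfrb were highest in other clusters. The part of vascular cells in the cluster 4 levels was not tested. In the P0 basal-like cells the 13 markers summed to 137 CPM on 21 UMIs with 5 of 13 detected, and skeletal muscle, endothelial and melanocyte markers were at 0 there.

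Of 25 related smooth muscle genes tested in the P0 mesenchyme, 4 were higher than in luminal-like cells and 11 lower, beside 21.0% and 25.6% of all genes. Pgm5 (5.50-fold, 2.10 to 18.2), Des, desmin (5.27-fold, 43 UMIs against 8), Ppp1r14a, an inhibitor of the myosin phosphatase (4.91-fold, 1.64 to 19.7), and Ppp1r12b, a subunit of that phosphatase (3.77-fold, 2.02 to 7.57), were the 4. The same 4 were higher against the whole P0 epithelium, Des 5.60-fold, Pgm5 4.17-fold, Ppp1r12b 3.72-fold and Ppp1r14a 3.48-fold, with 11 lower. Of the 12 non-muscle genes only Myh10, non-muscle myosin heavy chain IIB, was higher in P0 mesenchyme (2.83-fold, 2.19 to 3.70) and 9 were lower. The next 3 were below 1: Myl12b (0.721), Cnn3 (0.522) and Tpm3 (0.457).

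Basal-like cells had 12 of the 24 related genes tested higher than the mesenchyme and 1 lower, beside 17.5% and 15.0% of all genes, led by Actn1 (15.7-fold), Csrp1 (13.6-fold), Tpm1 (11.9-fold, 9.94 to 14.2) and Nexn (10.2-fold). They also had 9 of the 12 non-muscle genes higher and 1 lower, led by Cnn2 (14.8-fold), Myh9 (11.5-fold), Actn4 (7.39-fold) and Myl12a (4.79-fold). The comparison with luminal-like cells, given above, called 2 of 22 and 0 of 12 higher.

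In the embryo the share of related genes higher in mesenchyme was above that of all genes at E13.5 and near it at the later stages. At E13.5 9 of 25 tested were higher there and 0 lower, beside 24.2% and 11.5% of all genes, with Des (17.8-fold, 21 UMIs against 1), Pgm5 (10.4-fold), Synpo2 (8.48-fold) and Ppp1r14a (at least 4.80-fold) first. At E14.5 5 of 25 were higher and 3 lower (19.6% and 16.2% of all genes), first Ppp1r14a (16.7-fold on 11 UMIs against 1), Pgm5 (6.08-fold), Smtn (4.75-fold) and Itpr1 (4.56-fold). At E15.5 7 of 27 were higher and 2 lower (23.8% and 17.4%), with Des (33.5-fold, 8.58 to 288), Myocd (15.1-fold, 23 UMIs against 3), Itpr1 (6.66-fold) and Ppp1r14a (5.54-fold) first. The non-muscle list had 1, 0 and 0 higher and 1, 2 and 5 lower at the 3 stages. Its 4 largest ratios were Myh10 (3.20-fold), Tpm4, Cnn3 (1.83-fold each) and Cnn2 (1.82-fold) at E13.5, Cnn3 (1.92-fold), Tagln2 (1.60-fold), Myh10 and Myl12b (1.26-fold each) at E14.5, and Cnn3 (1.49-fold), Myl12b, Myh10 and Cnn2 (1.11-, 1.10- and 1.09-fold) at E15.5.

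Further stage steps were seen in these lists. In the epithelium from E13.5 to E15.5, 6 of 25 related and 5 of 12 non-muscle genes rose and 0 fell, beside 14.1% and 16.0% of all genes, with Smtn (5.87-fold, 3.25 to 11.8), Srf (5.79-fold, 3.98 to 8.75), Rock2 (2.88-fold) and Synpo2 (2.14-fold, 0.878 to 6.79) first among the related and Tagln2 (7.37-fold), Tpm4 (3.86-fold), Tpm3 (2.44-fold) and Myh9 (2.38-fold) among the non-muscle genes. In the mesenchyme from E15.5 to P0, 9 of 26 related genes fell and 3 rose, beside 27.5% and 15.6% of all genes, the latter Des (3.66-fold, 2.28 to 5.92), Pgm5 (2.25-fold) and Smtn (2.08-fold), with Pdlim7 (1.61-fold) next. Srf was at 0.104 (0.0599 to 0.168) and Myocd at most at 0.378 of its E15.5 level. Of the non-muscle genes 5 fell and Tagln2 rose (3.09-fold, 2.72 to 3.52), and Myl12b (1.19-fold), Myh9 (0.845) and Tpm3 (0.772) came next.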

How the data were processed

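Single-cell libraries (10x 3′ chemistry) of female C57B6 (in the methods C57 B6/N) mouse mammary cells, 1 per stage, were used. The authors deposited filtered UMI count matrices made with Cell Ranger against mm10: per the file headers release 6.0.0 for 3 stages and 3.1.0 for E15.5, for which the submitters' notes give 6.0.0. Genes were matched by identifier (30406 shared of 32285 and 31053). All count columns were mapped to a stage.

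Of 981, 807, 2642 and 1466 barcodes, 235, 76, 816 and 503 cells passed (5000 UMIs or more, mitochondrial share up to 6%), holding 4506046, 2111282, 21559040 and 5122125 UMIs, and 3 cells with equal tissue sums were left out. Doublets had been gated out by the authors in the sort according to the labels, and no caller was run. UMIs were summed per group and scaled to CPM. Exact Poisson, Clopper-Pearson and conditional binomial intervals at 95% cover counting error only. The ratio intervals and 2-fold calls were checked on simulated counts with known changes. Groups of at least 90 cells were clustered per stage and tissue with Seurat 5.3.0 and sctransform 0.4.2 (R 4.3.3, Matrix 1.6.5), using genes in at least 3 cells, 2000 variable genes without the 50 genes of the contractile lists, 15 principal components and resolution 0.8. Other steps used Python 3.11.15 with numpy 2.4.6, scipy 1.17.1 and pandas 2.3.3. edgeR 4.0.16 gave TMM factors for 1 alternative, and no significance test was run.

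All 10 members were named, together with the 4 genes of the related (28) and non-muscle (12) lists with the largest ratio among those with enough UMIs in each comparison, and the 5 genes most like Acta2 (at least 20 UMIs in the P0 basal-like cells). Srf and Myocd were named beyond that rule, after their values were seen. The members and lists were chosen with earlier results of these data known. The comparisons between clusters, of the mesenchyme at E15.5 and E13.5, the use of P0 clusters in place of keratins, and the listings of single P0 cells were chosen after seeing the data. Alternatives were other cell filters, TMM scaling, thinning, cells weighted equally, other limits for calls and presence, and leaving out mixed, skin keratin, pericyte-marker or top cells.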

Additional observations from a re-analysis of the deposited data

Results flagged for a closer look

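In 8 of the 10 genes the ratio of mesenchyme over epithelium lay on opposite sides of 1 at an embryonic stage and at P0 with intervals that did not include 1, and this difference was not tested, since each stage is 1 library. The embryonic stage was picked gene by gene and no 2-fold limit was set. The share of all genes meeting this rule was not taken, so the count cannot be read as a trait of the members. Acta2 went from 19.1 at E13.5 to 0.0241 at P0, Tagln from 1.32 at E13.5 to 0.0219, and Tpm2 from 23.0 at E14.5 to 0.154. Myl9 went from 5.02 at E15.5 to 0.242 and Mylk from 8.35 at E15.5 to 0.284. Myl6 went from 1.21 at E13.5 to 0.327. The other embryonic stages differed for 3 of these genes. Tagln was at 0.121 at E14.5 and 0.655 at E15.5, Myl6 at 0.905 and Cnn1 at 0.984 at E15.5, and the E13.5 log2 ratio of Tagln was -0.66 without skin keratin cells. Cnn1 went from at least 2.83 at E13.5 to at most 0.0313, and Oxtr from at least 9.84 at E15.5, on 15 UMIs, to 0.116 on 1 UMI against 9. These P0 ratios are against the whole P0 epithelium, including the 19 cells of cluster 3. Against the epithelium outside that cluster Acta2 was at 0.795 (0.469 to 1.34), Myl9 at 1.46 (0.793 to 2.76) and Mylk at 2.88 (0.872 to 12.2). For these genes no reversal was seen there, while Tagln, Tpm2, Myl6, Cnn1 and Oxtr stayed below 1.

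Barcodes that failed the cell filters also carried contractile transcripts. At E14.5 Tagln was 286 CPM in the barcodes left out and 141 CPM in the kept cells, a ratio of 2.02 (1.74 to 2.36), from 419 UMIs in 138 of 731 barcodes. At P0 Myh11 was 57.1 against 10.3 CPM, a ratio of 5.52 (3.95 to 7.81), from 113 UMIs in 39 of 963 barcodes with at most 11 UMIs each, and 1 of these UMIs was in the 233 barcodes that failed the UMI minimum alone. Mylk at P0 was 28.3 against 10.9 CPM, a ratio of 2.59 (1.76 to 3.82), from 56 UMIs in 35 barcodes.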

How the results depend on the processing

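Over the alternatives, 143 recomputed counts and shares stayed within 1.5 times of their value, or within its interval for the share, and 16 moved. No share of all genes is given for an alternative, so the counts of members below are not set against one. After thinning every cell, 1 member in place of 3 was higher in mesenchyme at E14.5, with Myl9 turning to a log2 ratio of -0.36, and 3 in place of 5 rose in the epithelium from E13.5 to E15.5. Without skin keratin cells 2 rose there, 3 in place of 5 were higher in mesenchyme at E13.5, 4 in place of 2 were present in the E13.5 epithelium, and Myh11 at E15.5 turned to -0.01. With P0 clusters in place of keratins 1 member in place of 0 was higher in P0 mesenchyme than in the luminal-like cells, and Myh11 (0.94), Mylk (1.52) and Myl9 (0.55) turned, on 1, 4 and 19 UMIs outside the cluster. A limit of 25% of cells left 1 member present in the E13.5 epithelium, 2 in the E15.5 epithelium, 3 in the E13.5 mesenchyme and 2 in the E14.5 mesenchyme. Unthinned cells gave 4 in the E13.5 and 5 in the E14.5 epithelium, and a UMI minimum of 3000 gave 2 in the E15.5 epithelium. The share of P0 mesenchymal cells with at least 2 restricted members (0.733%) was 12.8% for at least 1, 0% for at least 3 and 3.30% without thinning. Of single-gene ratios 740 kept their value, 119 moved and 4 reversed. The cause of these changes was not tested. TMM scaling shifted all log2 ratios of a comparison by -0.38 (P0 basal-like over mesenchyme) to 0.26 (P0 mesenchyme over luminal-like) and left every count of members called higher as it was. No paired analysis was possible because each stage is 1 library and no test was run, and for the same reason no replicate could be left out. Depth limits the E14.5 mesenchyme (31 cells), the P0 basal-like class (15 cells) and Oxtr, which gave at most 15 UMIs in any group.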
